A study of Mus musculus with 2 samples.

Results

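The cytochrome P450 genes of mouse skin were read here in single cells of 1 WT and 1 Card14KI mouse. Members were all features whose symbol is Cyp followed by a family number, a subfamily letter and a gene number, or is Cyp51, together with Por, the reductase that feeds them electrons. This gave 102 members (101 Cyp features and Por) of 31053 features, and Cyp4x1os, a transcript of the opposite strand, is among them. The 2 groups were a wild type C57BL/6 mouse and a C57BL/6 mouse with the genotype Card14 KI +/+, each 12 months old, with 1 library of whole back skin each. The knock-in line is a model of pityriasis rubra pilaris, an inflammatory scaling disease of skin, and it alters Card14, which encodes a scaffold protein of NF-kB signalling. The 3' counts do not read the edited allele, so Card14, with 410 UMIs in WT and 556 in Card14KI, is no check of the genotype. With 1 mouse per group there is no replicate check, and all intervals below cover counting error only.

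P450 enzymes are haem proteins that insert an oxygen atom into fats, steroids, vitamins, drugs and pollutants. Those of the endoplasmic reticulum take electrons from POR, and those of mitochondria take them from ferredoxin. In skin they are known for making cholesterol and signalling fats, for clearing retinoic acid and for handling chemicals that reach the body surface.

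All P450 enzymes hold the haem iron through 1 cysteine in a short conserved loop. The coding bases of that loop are shown for 5 members whose levels in sebocytes the results turn on, with the cysteine codon in capitals. They were read 5′ to 3′ on the coding strand from GENCODE vM21 transcripts (GRCm38), 30 bases each.
Cyp2g1: ttttcctctggaaagcgcatcTGCgttggg
Cyp2b19: ttctccacaggaaagcgcattTGTcttgga
Cyp2f2: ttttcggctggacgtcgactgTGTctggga
Cyp17a1: ttcggagctggtccccgatcgTGCattgga
Cyp1a1: tttggtttgggcaagcgaaagTGCatcgga
The stretches lie at chr7:26819474-26820667 (+) for Cyp2g1, chr7:26767236-26771252 (+) for Cyp2b19 and chr7:27132606-27133235 (+) for Cyp2f2, each across an exon boundary, and at chr19:46667520-46667549 (-) for Cyp17a1 and chr9:57702664-57702693 (+) for Cyp1a1. Cyp2g1 and Cyp2b19, neighbours on chromosome 7, share 23 of the 30 bases, and Cyp2g1 and Cyp17a1 share 15. The pattern was found in 95 of 101 members with a coding sequence. The 101 include Por, which is not a P450, and a gene without an exact match is not shown to lack the loop.

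The filters left 4161 cells in WT and 2835 in Card14KI, holding 51040861 and 38365728 UMIs (unique transcript counts) and a median of 7344 and 6875 UMIs per cell. The libraries shared 2 barcodes. Cells were clustered without the members and without the genes of their pathways, and clusters were named from marker genes, so each class is "like" its name, for example sebocyte-like. The study's own cell names were not used here, and rebuilt names can differ from them. Of 22 classes, 15 held 30 or more cells in each library and no cluster with more markers of another class than of its own among its top 10 genes, and these were compared. The collagen-rich and Pi16 fibroblast clusters, 1 Myoc Gpx3 cluster and the larger Akr1c18 cluster had none of their own markers among those 10 genes and were named by marker score. Root sheath classes of the hair were nearly absent from Card14KI: 204 WT and 5 Card14KI cells were outer root sheath-like, and 151 and 1 were inner root sheath-like. Both libraries held many Xist UMIs, 42530 and 27254, and at most 2 UMIs of each of 4 Y-linked genes. A level is given as CPM, the UMIs of a gene per 1000000 UMIs of the class in that library. Since 3' counting yields about 1 tag per transcript, CPM is not scaled to gene length. Paired values give WT first and Card14KI second, and ranges in brackets are exact 95% intervals of the level or ratio they follow. A gene counted as measured in a class with 20 or more UMIs over both libraries, and a ratio past 1.5-fold either way was called higher or lower.

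P450 transcripts in this skin came from few genes. Of the 102 members 39 had no UMI in any kept cell, 24 had 1 to 19, 8 had 20 to 49, and 31 had 50 or more. The 5 most abundant held 67.4% of all 71816 member UMIs. They were Cyp26b1 with 15696, Cyp51 with 12345, Cyp2f2 with 7587, Por with 6986 and Cyp2g1 with 5815. In families known from liver most members were not detected: 12 of 15 Cyp2c members, 6 of 8 Cyp4a members and 6 of 9 Cyp3a members had no UMI. These genes lie in tandem arrays of relatives, so reads could be split or lost in counting, and no UMI does not show absence. The Cyp2c and Cyp4a families held 48 and 9 UMIs in all, and the Cyp3a family 942. All members together made up 902.7 CPM of the WT library and 670.9 CPM of the Card14KI library, figures that also move with the mix of cell types.

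**Figure D1:**
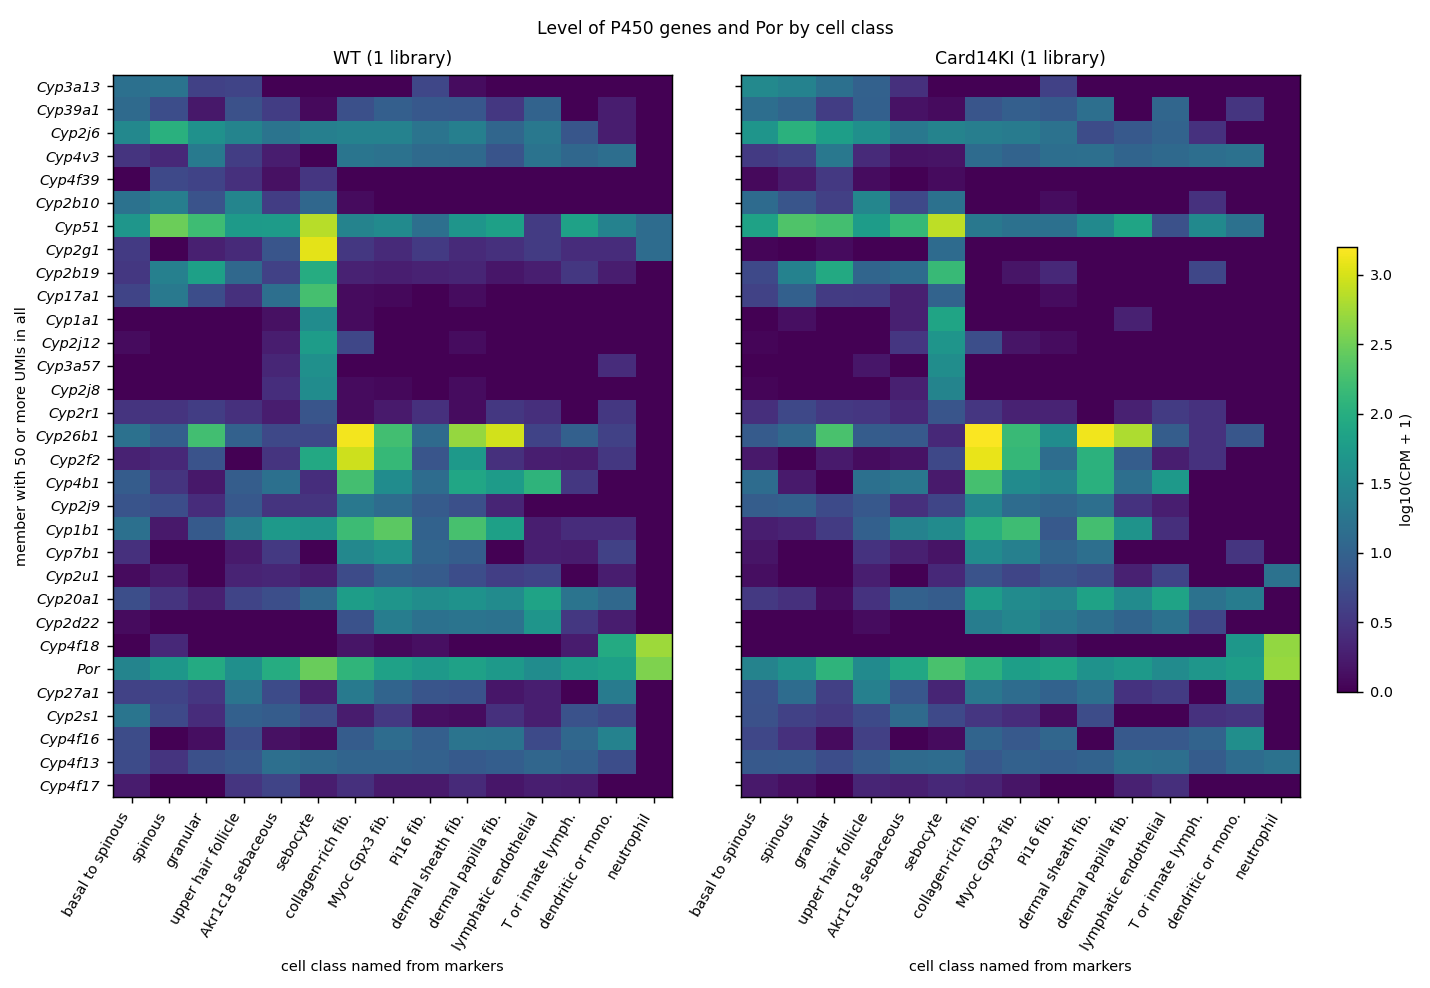
Level of the 31 members with 50 or more UMIs (rows) in the 15 compared cell classes (columns), as log10(CPM + 1), with WT on the left and Card14KI on the right. Among the brightest cells of the map are those of collagen-rich fibroblasts, Cyp26b1 in Card14KI dermal sheath fibroblasts and Cyp2g1 in WT sebocytes. Cyp2g1 is dim in Card14KI sebocytes.

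Among the compared classes, sebocytes and collagen-rich fibroblasts had the highest member totals in WT. Sebocytes, the fat-filled cells of the sebaceous gland, reached 2838 CPM of member UMIs in WT and 1417 in Card14KI, and without Cyp2g1 they reached 1678 and 1405. Collagen-rich fibroblasts reached 2958 and 3406. Keratinocyte classes were lower, with 241.6 and 264.4 CPM in the basal to spinous class and 592.5 and 696.5 in the granular class.

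Por is the shared electron donor of the microsomal enzymes, and it was found in all 22 classes. Its level was highest in the small neutrophil class, at 380 CPM in WT and 505 in Card14KI from 30 and 34 UMIs. In sebocytes it stood at 297 CPM in WT and 191 in Card14KI, 1.55-fold lower (95% interval 1.43 to 1.69). The median sebocyte held 2.8 UMIs per 10000 in WT and 1.72 in Card14KI. In the other classes with 500 or more UMIs it was within 1.5-fold: 123 and 112 CPM in collagen-rich fibroblasts, 66.7 and 61.3 in Myoc Gpx3 fibroblasts, and 90.6 and 121 in granular keratinocytes. Within the Myoc Gpx3 class the Por ratio was 0.609 (0.438 to 0.83) in 1 cluster and 1.56 (1.15 to 2.12) in the other. Of the other electron carriers, a list of 9 genes that includes cytochrome b5 and ferredoxin, 8 were measured in sebocytes with 20 or more UMIs. None was past 1.5-fold higher and 1 was lower, with a median log2 ratio of -0.03 against -0.06 over all genes there. Of 12 haem synthesis and breakdown genes in sebocytes, 1 was past 1.5-fold lower and none higher. That gene was Alas1, the first step of haem synthesis, at 86.2 CPM in WT and 52.5 in Card14KI, 1.64-fold lower (1.39 to 1.94).

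Cyp51 makes cholesterol by demethylating lanosterol, and sebocytes held 55.5% of its UMIs. The WT level there was 724 CPM and the Card14KI level 755 CPM, 1.04 times as high (0.995 to 1.09). The interval of this ratio includes 1. In spinous keratinocytes it stood at 301 and 210 CPM and in granular keratinocytes at 162 and 173. The basal to spinous class held 47.4 and 69 CPM, 1.46-fold higher in Card14KI (1.24 to 1.72), and upper hair follicle keratinocytes 53.7 and 58.4. Of 21 cholesterol genes 20 were measured in sebocytes, where none was past 1.5-fold higher and 1 was lower. That gene, Msmo1, encodes the sterol oxidase that follows Cyp51 closely in the pathway, and stood at 3075 and 1962 CPM.

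The pattern differed in the Akr1c18 sebaceous epithelial class, cells that led with Akr1c18 and carried fewer sebocyte transcripts. Cyp51 stood there at 55.9 CPM in WT and 138 in Card14KI, 2.47-fold higher (2.02 to 3.04). Of 20 measured cholesterol genes 14 were past 1.5-fold higher and none lower, and the median log2 ratio of the list was 0.62 against -0.08 over all genes. The 3 largest were Mvd at 4.15-fold, Idi1 at 3.12-fold and Fdft1 at 2.86-fold, all enzymes of sterol synthesis. Summed sebocyte markers in this class were 2397 CPM in WT and 4422 in Card14KI, and 7 of 8 were higher. Their part in the result was not tested. In the class's larger cluster the Cyp51 ratio was 1.31, and in the smaller, with 26 and 28 cells, it was 3.86. Cyp51 was lower in Myoc Gpx3 fibroblasts, at 32.9 and 14.6 CPM, 2.26-fold (1.52 to 3.49), and in T cells and innate lymphocytes, at 67.7 and 32.1 CPM, 2.11-fold (1.24 to 3.78).

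Sebocytes gave the largest difference between the libraries. Cyp2g1, known as a P450 of the olfactory lining, had 5679 UMIs in 178 WT sebocytes and 53 in 168 Card14KI sebocytes. Its level was 1160 CPM (1130 to 1190) against 12.1 (9.07 to 15.8), 95.8-fold lower in Card14KI (73.1 to 128). Cyp2g1 had the lowest Card14KI to WT ratio of all 9990 genes with 20 or more UMIs in sebocytes. A UMI was seen in 48.9% of WT and 12.5% of Card14KI sebocytes, whose median depths were 24788 and 22130 UMIs. With each cell thinned to 2000 UMIs the shares were 33.9% of 174 cells and 2.55% of 157 cells. Fibroblasts, which should lack the gene, showed it in 1.49% of WT cells and in no Card14KI cell, at median depths of 7177 and 5588 UMIs.

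Cyp17a1 and Cyp2f2 stood beside it. Cyp17a1 encodes the steroid hydroxylase and lyase on the route to androgens, and had 873 UMIs in WT sebocytes and 42 in Card14KI. Its level was 178 CPM against 9.59, 18.6-fold lower (13.6 to 26), and the share of cells with a UMI was 52.2% against 16.1%. Cyp2f2, known for activating naphthalene in mouse airway, had 414 and 17 UMIs, or 84.6 CPM against 3.88, 21.8-fold lower (13.4 to 37.7). In the same ranking Cyp2f2 was 7 and Cyp17a1 was 9 from the lowest of the 9990 genes, so 3 of the 9 lowest were members. Among the other 6, Scd2 was 2 from the lowest, with 117 and 2 UMIs, or 23.9 and 0.457 CPM. Krt71, Krt27 and Krt25 are hair root sheath keratins that had no UMI in Card14KI sebocytes. Without the set count of 3, every gene with no Card14KI UMI has a ratio of 0 and ranks below all 3 members.

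**Figure D2:**
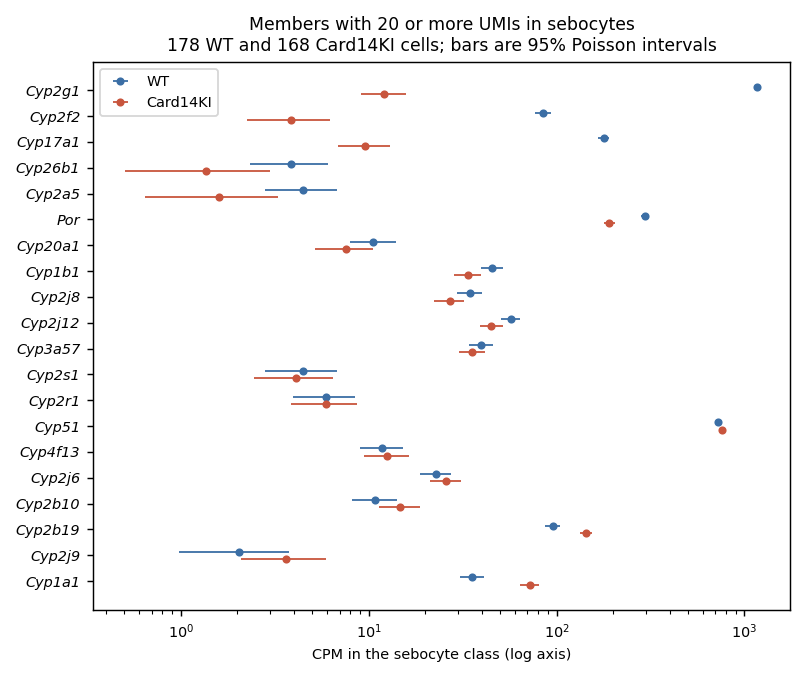
Levels of the 20 members with 20 or more UMIs in sebocytes, on a log axis of CPM, with WT in blue, Card14KI in red and 95% Poisson intervals as bars, ordered by ratio from lowest (top) to highest. Cyp2g1, Cyp2f2 and Cyp17a1 lie far apart between the libraries, whereas Cyp51 overlaps and Cyp1a1 lies the other way.

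The sebocyte class joined 2 clusters, 1 with lower Scd1 (99 WT and 84 Card14KI cells) and 1 with higher Scd1 (79 and 84 cells), Scd1 being the main desaturase of sebum fats. The 3 members were lower in Card14KI in both. In the higher-Scd1 cluster Cyp2g1 was detected in 72 of 79 WT cells, with a median of 17.8 UMIs per 10000 and a highest cell of 136. In Card14KI it was detected in 19 of 84 cells, with a median of 0 and a highest cell of 2.41. The difference thus lay in nearly all WT cells of the cluster and not in a few. All 3 members were found together in 37 of the 79 WT cells and in 1 of the 84 Card14KI cells, and none of them was found in 1 and 50 cells.

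In the lower-Scd1 cluster the levels were smaller and ordered otherwise. Cyp17a1 led there, at 125 CPM in WT and 11.8 in Card14KI, 10.6-fold lower (6.86 to 17.2). Cyp2g1 stood at 14.7 and 2.15 CPM and Cyp2f2 at 23.5 and 2.15 CPM. Cyp17a1 was also lower in Card14KI in the Akr1c18 class, with 34 and 2 UMIs, and in spinous keratinocytes, at 18.9 and 8.54 CPM, 2.21-fold (1.24 to 3.98).

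**Figure D3:**
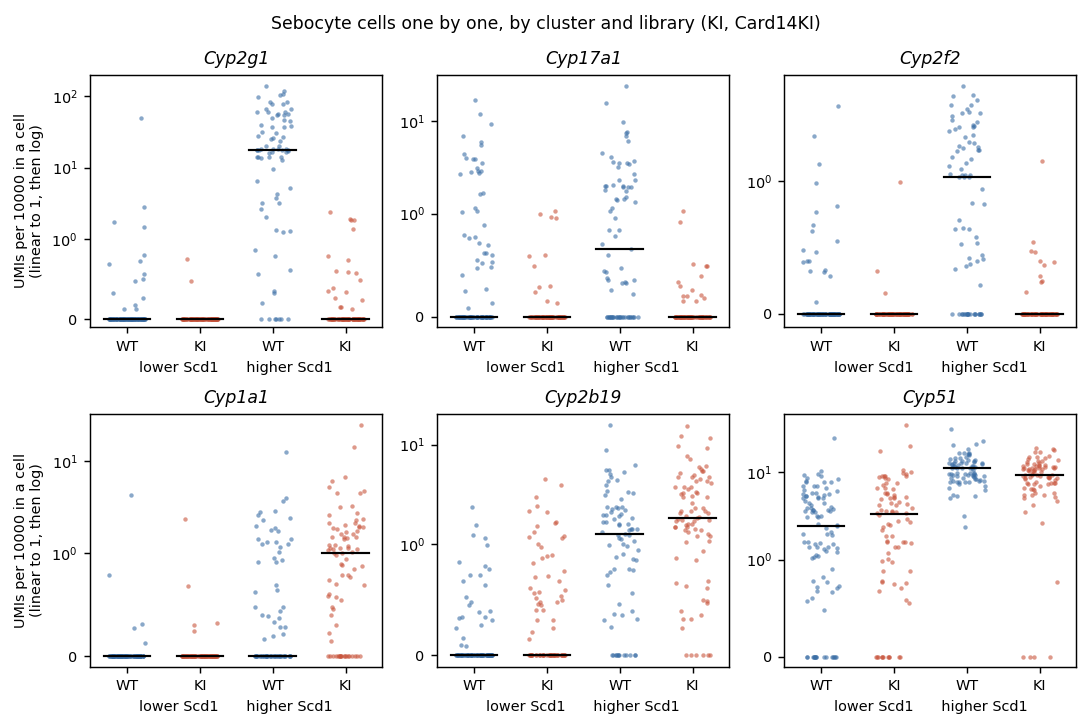
UMIs per 10000 in each sebocyte cell for 6 members (vertical axis linear to 1, then logarithmic), split into the cluster with lower and the cluster with higher Scd1, with WT in blue, Card14KI (KI) in red and a black line at each median. In the higher-Scd1 cluster the Cyp2g1 median is 17.8 in WT and 0 in Card14KI, and the Cyp1a1 median is 0 in WT and 1.01 in Card14KI.

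Genes that define sebocytes differed less. Over the class the 8 sebocyte markers summed to 24376 CPM in WT and 30816 in Card14KI, 5 of 8 being higher in Card14KI and none at 0. In the higher-Scd1 cluster Soat1 stood at 3007 and 3086 CPM, Far2 at 1114 and 981, and Awat2 at 80.7 and 87.8, all of them enzymes of sebum or sterol ester synthesis. Other sebocyte genes of that cluster lay on either side, with Scd3 at 178 and 518 CPM, Akr1c18 at 350 and 764, Cidea at 2122 and 1470 and Cers4 at 4617 and 3538. Collagen-rich fibroblast markers in sebocytes summed to 126 CPM in WT and 23.3 in Card14KI. For each 1000 UMIs of these markers there were 673 Cyp2f2 UMIs in WT sebocytes and 12.3 in WT collagen-rich fibroblasts. Inner root sheath markers were 94.2 CPM in WT sebocytes and 9.82 in Card14KI. The part of either marker group in the result was not tested.

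On the other side, 3 sebocyte members were past 1.5-fold higher in Card14KI. Cyp1a1, an oxidiser of aromatic pollutants, had 98.6% of its UMIs in sebocytes. It stood at 35.5 CPM in WT and 72 in Card14KI, 2.02-fold higher (1.68 to 2.45), and in 24.7% and 41.7% of cells (6.9% and 13.4% when thinned). The ratio was 1.28 (0.599 to 2.73) in the lower-Scd1 cluster, from 16 UMIs in each library, and 1.89 (1.55 to 2.31) in the higher-Scd1 cluster. In fibroblasts Cyp1a1 was seen in 0.0464% and 0.0722% of cells. Cyp2b19, a keratinocyte enzyme that makes epoxides of arachidonic acid, stood at 95.2 and 144 CPM, 1.51-fold higher (1.34 to 1.71). By cluster the ratio was 2.9 (2.02 to 4.22) with lower Scd1, from 45 and 102 UMIs, and 1.25 (1.1 to 1.43) with higher Scd1, from 421 and 527. Cyp2b19 was also higher in the Akr1c18 class, from 8 and 27 UMIs, at a ratio of 3.8 (1.68 to 9.69). Of these UMIs 4 and 23 came from the cluster of 26 and 28 cells. Cyp2j9, of the epoxygenase family Cyp2j, stood at 2.04 and 3.65 CPM, with an interval of the ratio from 0.763 to 4.41.

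Another 3 members, seen almost only in sebocytes, were within 1.5-fold. Cyp3a57, with 97.8% of its UMIs there, stood at 39.8 and 35.6 CPM, Cyp2j8, with 96.6%, at 34.5 and 27, and Cyp2j12, with 93%, at 57 and 45. All 3 are close relatives of other members in tandem arrays, so their reads could be split or lost in counting, and the same holds for the Cyp2a, Cyp2b and Cyp4f genes. Cyp1b1 in sebocytes stood at 45.3 and 33.8 CPM. Cyp2a5 had 22 and 7 UMIs there, 2.81-fold lower (1.16 to 7.79), and Cyp26b1 19 and 6 UMIs. Cyp4f13, Cyp2j6, Cyp2b10, Cyp2r1, Cyp2s1 and Cyp20a1 were also within 1.5-fold, at 4.11 to 25.8 CPM in either library.

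Of the 20 members tested in sebocytes, 3 were past 1.5-fold higher and 6 lower, where 5.41% of all 9990 genes were higher and 8.61% lower. Among 17 steroid hormone genes fixed as a list, 7 were measured in sebocytes, with 1 past 1.5-fold higher and 1 lower. Akr1c18, a progesterone-reducing enzyme, stood at 1084 and 1642 CPM, and Hsd3b6, a step that shares substrates with Cyp17a1, at 107 and 64.6 CPM, 1.65-fold lower (1.42 to 1.91). Of 15 measured conjugation and transport genes none was higher and 3 were lower, among them the glutathione transferases Gsta4 at 106 and 56.9 CPM and Gstm1 at 25.9 and 13.7.

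Neighbouring genes of the family were not alike in sebocytes. Cyp2g1 (ENSMUSG00000049685, chr7:26808892-26821205, plus strand), Cyp2b19 (ENSMUSG00000066704, chr7:26757142-26772630, plus strand) and Cyp2f2 (ENSMUSG00000052974, chr7:27119909-27133660, plus strand) lie in 1 array of 13 Cyp2 members that spans 1.36 Mb in GRCm38. Of the 13, 6 had 20 or more UMIs. In order along the array, the sebocyte levels in WT and Card14KI were 4.49 and 4.11 CPM for Cyp2s1, 10.8 and 14.6 for Cyp2b10, 95.2 and 144 for Cyp2b19, 1160 and 12.1 for Cyp2g1, 4.49 and 1.6 for Cyp2a5, and 84.6 and 3.88 for Cyp2f2. Adjacent Cyp2b19 and Cyp2g1 thus lay on opposite sides. In the higher-Scd1 cluster their ratios were 1.25 (1.1 to 1.43) and 0.00868 (0.00641 to 0.0115). Cyp17a1 (ENSMUSG00000003555) is on chromosome 19, at chr19:46667165-46673172, minus strand.

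Cyp1a1 and Cyp1b1 are the textbook targets of the aryl hydrocarbon receptor, which binds the DNA core GCGTG. Their promoters are shown because these related genes had their highest levels in different classes. The 250 bases before the RefSeq start are given 5′ to 3′ in the direction of the gene (GRCm38.p6), with GCGTG on either strand and the TATA box TATAAA on either strand in capitals.
Cyp1a1: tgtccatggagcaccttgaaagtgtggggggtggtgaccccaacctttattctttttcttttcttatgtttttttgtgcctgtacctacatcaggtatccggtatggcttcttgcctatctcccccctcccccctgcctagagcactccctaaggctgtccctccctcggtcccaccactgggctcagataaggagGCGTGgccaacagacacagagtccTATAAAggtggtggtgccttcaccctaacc
Cyp1b1: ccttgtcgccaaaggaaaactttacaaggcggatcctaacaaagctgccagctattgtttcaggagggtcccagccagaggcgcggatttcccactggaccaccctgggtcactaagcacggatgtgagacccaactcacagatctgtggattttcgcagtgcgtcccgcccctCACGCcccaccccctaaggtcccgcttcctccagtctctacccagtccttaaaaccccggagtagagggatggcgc
The windows are chr9:57697363-57697612 (+) and chr17:79715062-79715311 (-). Each held 1 GCGTG match, read as CACGC in Cyp1b1, and Cyp1a1 also held 1 TATAAA, which Cyp1b1 did not. The 2 motifs do not overlap. Of 32851 promoter windows of this length in the table, 28.2% hold GCGTG and 12.4% hold TATAAA, so a match describes the letters only.

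Cyp1b1 was a gene of fibroblasts, with its highest level in Myoc Gpx3 fibroblasts at 250 CPM in WT and 159 in Card14KI, 1.57-fold lower (1.39 to 1.78). Within that class the ratio was 0.519 in 1 cluster and 0.999 in the other. Dermal sheath fibroblasts held 186 and 174 CPM, and collagen-rich fibroblasts 157 and 103, 1.53-fold lower (1.3 to 1.81). Cyp1b1 was also past 1.5-fold lower in dermal papilla fibroblasts (1.52-fold), the Akr1c18 class (2.04-fold), upper hair follicle keratinocytes (2.49-fold), granular keratinocytes (2.74-fold, 23 and 11 UMIs) and the basal to spinous class (16.6-fold, 56 and 8 UMIs). No class had it past 1.5-fold higher. Of 170 WT cells of the basal to spinous class, 7 in 1 cluster and 8 in the other held the 56 UMIs. In the basal to spinous class collagen-rich fibroblast markers were 1390 CPM in WT and 70.9 in Card14KI, 0 of 5 being higher. Per 1000 UMIs of these markers there were 10.2 Cyp1b1 UMIs in that class in WT. In WT fibroblasts there were 9.59 in the Myoc Gpx3 class, 4.54 in the dermal sheath class and 2.17 in the collagen-rich class. The part of fibroblast RNA in the result was not tested.

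Genes of the receptor pathway were mostly within 1.5-fold in these cells. Of 10 genes of the aryl hydrocarbon receptor list, 6 were measured in sebocytes and in Myoc Gpx3 fibroblasts and 7 in collagen-rich fibroblasts. Past 1.5-fold higher were 0, 1 and 0 of them, and none was lower. Ahr, the receptor, stood at 22.1 and 24.4 CPM in sebocytes and 86.6 and 84.7 in collagen-rich fibroblasts. Its responsive gene Tiparp stood at 21.4 and 25.6 CPM in sebocytes. Elsewhere Aldh3a1, an aldehyde oxidiser on the list, was higher, at 46.1 and 83.1 CPM in the basal to spinous class and 103 and 213 in upper hair follicle keratinocytes. Cyp1a2, the third gene of the family, had 1 UMI in all kept cells.

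Cyp26b1, which hydroxylates retinoic acid and so ends its signal, was the most abundant member (ENSMUSG00000063415, chr6:84571414-84593908, minus strand). Collagen-rich fibroblasts held 51.9% of its UMIs and carried it in 92% of cells of each library. The WT level there was 1373 CPM and the Card14KI level 1531 CPM, 1.11-fold higher (1.06 to 1.17), and the median cell held 12.2 and 12.6 UMIs per 10000. Among the fibroblast classes Myoc Gpx3 fibroblasts were lower, at 169 and 146 CPM, and Pi16 fibroblasts lowest, at 11.6 and 35.3. The follicle-bound classes lay on opposite sides. Dermal papilla fibroblasts stood at 965 and 630 CPM, 1.53-fold lower (1.4 to 1.68), and dermal sheath fibroblasts at 487 and 1341 CPM, 2.75-fold higher (2.42 to 3.11).

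The follicle classes were not alike between the libraries. Dermal sheath markers summed to 4007 CPM in the 323 WT cells of that class and to 1249 in the 50 Card14KI cells, with 0 of 5 higher, while basal keratinocyte markers were 52.3 and 329 CPM. Dermal papilla markers summed to 1317 and 698 CPM, again with 0 of 5 higher, and the median depth was 5430 UMIs in 99 WT cells and 24763 in 43 Card14KI cells. Their part in the results was not tested. Within the Myoc Gpx3 class the Cyp26b1 ratio was 1.68 in 1 cluster and 0.402 in the other.

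Cyp26b1 was also found in granular keratinocytes, the outermost living layer, at 169 CPM in WT and 189 in Card14KI and in 66.3% and 68.6% of cells. Other compared keratinocyte classes held 7.18 to 14.7 CPM, with 14.7 and 7.18 in the basal to spinous class, 2.05-fold lower (1.42 to 2.95). The Cyp26b1 ratio was 0.88 (0.509 to 1.56) in the larger basal to spinous cluster and 0.268 in the smaller. In granular cells there were 576 Cyp26b1 UMIs in WT for each 1000 UMIs of collagen-rich fibroblast markers, against 18.9 in WT collagen-rich fibroblasts. In the basal to spinous class there were 10.6, and those markers were 1390 CPM in WT and 70.9 in Card14KI. The part of fibroblast RNA in either class was not tested. In Pi16 fibroblasts it was 3.05-fold higher in Card14KI (2.07 to 4.61), from 33 and 133 UMIs. Cyp26a1, a related clearing enzyme, had 42 UMIs in all, 39 of them in WT, with its highest level in outer root sheath cells, and Cyp26c1 had none.

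Of 19 other retinoid genes 13 were measured in collagen-rich fibroblasts, with none past 1.5-fold higher and 5 lower, where 9.68% of all genes were higher and 9.23% lower, and the list's median log2 ratio was -0.29 against 0.02 over all genes. The 4 largest that qualified were the retinoic acid binding protein Crabp1 at 70.5 and 19.3 CPM, the reductase Dhrs3 at 27.2 and 13.2, the retinol oxidiser Rdh10 at 26.7 and 16, and the retinaldehyde oxidiser Aldh1a1 at 132 and 79.8. In sebocytes 1 of 10 measured was higher and none lower. That gene was the binding protein Crabp2, at 6.54 and 26.5 CPM, 4.05-fold higher (2.72 to 6.2).

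**Figure D4:**
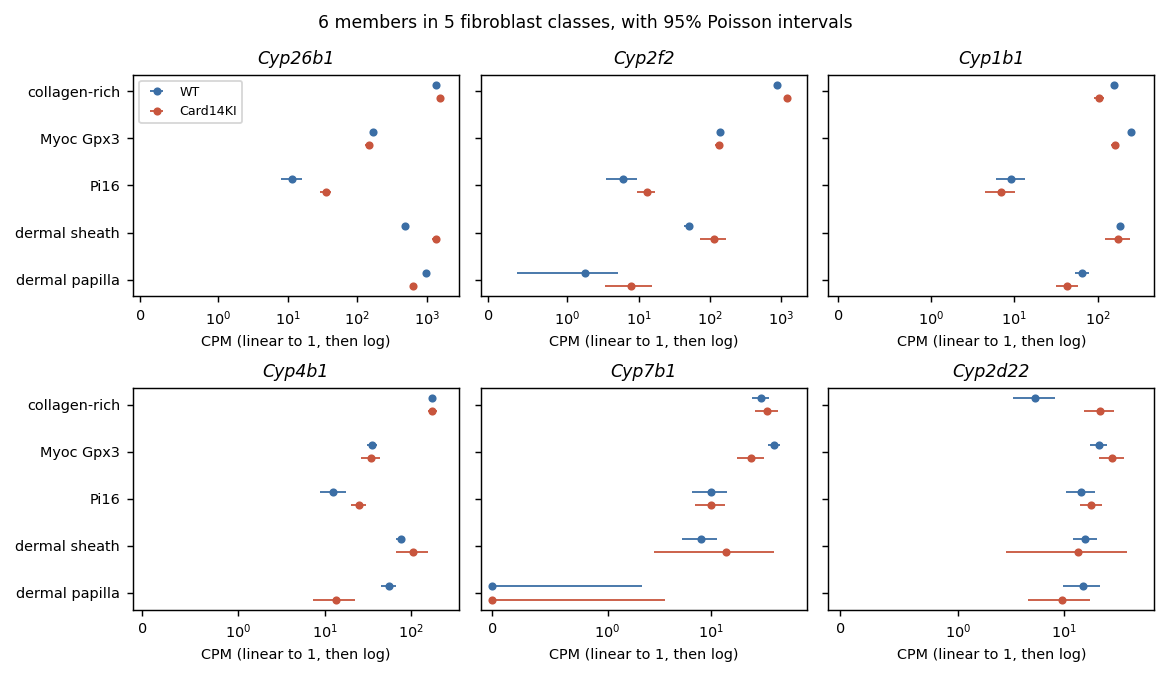
Levels of 6 members in 5 fibroblast classes (CPM, linear to 1, then logarithmic), with WT in blue, Card14KI in red and 95% Poisson intervals as bars. Cyp26b1 and Cyp2f2 peak in collagen-rich fibroblasts in both libraries, and Cyp26b1 lies on opposite sides in the dermal sheath and dermal papilla classes.

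Cyp2f2 was the second fibroblast member, and 75.3% of its UMIs lay in collagen-rich fibroblasts. Its level in that class was 891 CPM for WT and 1231 for Card14KI, 1.38-fold higher (1.31 to 1.46), and in 87.2% and 84.9% of cells. The collagen-rich class was thus on the other side from sebocytes, where the gene was 21.8-fold lower. Myoc Gpx3 fibroblasts held 138 and 136 CPM. Dermal sheath fibroblasts held 51.2 and 114 CPM, 2.23-fold higher (1.41 to 3.4), from 182 and 25 UMIs. Pi16 fibroblasts held 5.96 and 13 CPM, 2.18-fold higher (1.24 to 4.04). In granular keratinocytes there were 18 UMIs in WT, from 2.88% of cells, and 3 in Card14KI, and collagen-rich fibroblast markers there were 294 and 11.6 CPM. The direction in granular cells changed with the clustering. In the collagen-rich class itself these markers, which named it, summed to 72462 and 24385 CPM, 0 of 5 being higher in Card14KI.

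Cyp4b1, which hydroxylates fatty acids and activates plant toxins, followed a like order. It stood at 175 and 178 CPM in collagen-rich fibroblasts, 76.3 and 105 in dermal sheath, 35.5 and 34.3 in Myoc Gpx3 and 12.6 and 25 in Pi16 fibroblasts. Within the Myoc Gpx3 class the Cyp4b1 ratio was 1.59 (1.11 to 2.27) in 1 cluster and 0.457 (0.261 to 0.759) in the other. In Pi16 fibroblasts it was 1.98-fold higher in Card14KI (1.33 to 2.99). Dermal papilla fibroblasts stood at 55.3 and 13.6 CPM, 4.06-fold lower (2.31 to 7.71). Outside fibroblasts Cyp4b1 was a gene of lymphatic endothelium, at 118 and 51.1 CPM, 2.32-fold lower (1.7 to 3.2). It was higher at low levels in the basal to spinous class, at 7.6 and 12.4 CPM, and in upper hair follicle keratinocytes, at 7.77 and 14.

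Sterol and fat hydroxylases of fibroblasts were less abundant. Cyp7b1, which acts on oxysterols and neurosteroids, stood at 40.2 and 23.9 CPM in Myoc Gpx3 fibroblasts, 1.68-fold lower (1.22 to 2.36; cluster ratios 0.835 and 0.32), and at 30 and 34.1 in collagen-rich fibroblasts. Cyp20a1, an enzyme of unknown substrate, was spread over fibroblasts and lymphatic endothelium, where it stood at 71.2 and 70.2 CPM. Its only named difference was in the basal to spinous class, with 19 and 22 UMIs, 2.04-fold lower (1.05 to 3.95). Cyp2u1, a fatty acid hydroxylase, had 49 and 7 UMIs in Myoc Gpx3 fibroblasts, 2.35-fold lower (1.06 to 6.14), and Cyp4f16 had 71 and 13 there, 1.83-fold lower (1 to 3.6). Cyp4v3, a fatty acid hydroxylase, stood at 9.36 to 16.4 CPM in the collagen-rich and Myoc Gpx3 classes and at 19.6 and 18.3 in granular keratinocytes. Of 5 oxysterol and bile acid genes measured in collagen-rich fibroblasts 2 were higher and none lower, where 9.68% of all genes were higher and 9.23% lower. In the Akr1c18 class none of 6 was higher and 3 were lower, against 5.19% and 13.1% of all genes. In lymphatic endothelium none of 5 was higher and 2 were lower, against 7.37% and 19.8%.

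Cyp2d22, the mouse gene often set beside human CYP2D6, was on opposite sides in different classes. In collagen-rich fibroblasts it stood at 5.38 and 22 CPM, 4.09-fold higher (2.35 to 7.3), from 21 and 40 UMIs. In lymphatic endothelium it stood at 45.4 and 14.7 CPM, 3.09-fold lower (1.76 to 5.69). Lymphatic markers in that class summed to 36337 and 25715 CPM, and collagen-rich fibroblast markers to 508 and 122. Cyp2j9 in collagen-rich fibroblasts stood at 18.2 and 28.1 CPM, 1.54-fold higher (1.05 to 2.24), and was lower when cells were gated one by one. Cyp2c23, an epoxygenase best known in kidney, had 3 UMIs in WT and 30 in Card14KI Pi16 fibroblasts, a ratio of 7.57 (2.35 to 38.8), from 0.813% and 5.51% of cells.

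In the basal to spinous and spinous classes Cyp51 and Cyp2j6 were the most abundant members, and in granular cells Cyp26b1 and Cyp51 were. Cyp2j6, an arachidonic acid epoxygenase, had its highest level among the compared classes in spinous keratinocytes, at 107 CPM in WT and 110 in Card14KI and in 75% and 81.2% of cells. It stood at 30.6 and 46.1 CPM in the basal to spinous class, 1.5-fold higher (1.23 to 1.85), and at 40.5 and 62 in granular keratinocytes, 1.53-fold higher (1.24 to 1.91). By class it was therefore alike in the spinous layer and higher on either side of it in Card14KI, with no test of that contrast. The Cyp2j6 ratio was 1.29 (1.01 to 1.67) in the larger basal to spinous cluster and 2.13 (1.46 to 3.21) in the smaller. In the larger granular cluster, with 129 and 260 Cyp2j6 UMIs, the ratio was 1.31 (1.05 to 1.62). Upper hair follicle cells held 26.5 and 37.7 CPM, and melanocytes, too few to compare, held 17 and 6 UMIs, or 240 and 86.1 CPM.

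Cyp3a13, of the drug-metabolising Cyp3a family, was higher in Card14KI in each of 4 keratinocyte classes. It stood at 14.2 and 31.2 CPM in the basal to spinous class, 2.2-fold higher (1.65 to 2.98), and at 15.5 and 25.6 in spinous cells, 1.65-fold (1.02 to 2.77). Granular cells held 3.11 and 14 CPM, 4.5-fold (2.28 to 9.87), and upper hair follicle cells 3.53 and 8.94, 2.53-fold (1.21 to 5.78). In Pi16 fibroblasts, the other class with 20 or more UMIs, it stood at 3.86 and 3.19. With cells thinned to 2000 UMIs Cyp3a13 was found in 3.47% and 4.69% of basal to spinous cells, against 21.2% and 46.8% before thinning, and the median depths of that class were 11515 and 18888 UMIs.

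**Figure D5:**
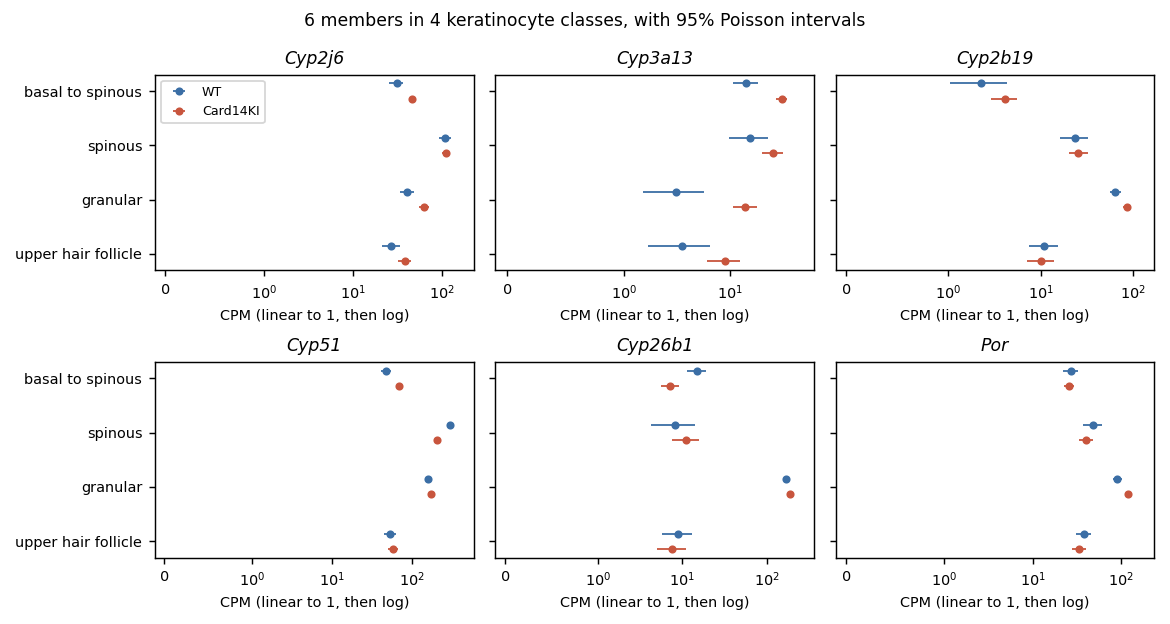
Levels of 6 members in 4 keratinocyte classes (CPM, linear to 1, then logarithmic), with WT in blue, Card14KI in red and 95% Poisson intervals as bars. Cyp3a13 is higher in Card14KI in all 4 classes, Cyp2j6 peaks in the spinous class, and Cyp26b1 and Cyp2b19 peak in the granular class.

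Cyp2b19 was higher in outer layers, with 2.28 and 4.07 CPM in the basal to spinous class, 23.6 and 25.6 in spinous and 64.8 and 86 in granular cells, where the ratio was 1.33 (1.12 to 1.58). Cyp2b10, a drug-inducible relative, was highest in upper hair follicle cells at 27.2 and 28.5 CPM. In spinous cells it stood at 22.2 and 6.05 CPM, 3.68-fold lower (1.99 to 7.04). Cyp2s1, known from epithelia that face the outside, stood at 16.7 and 5.25 CPM in the basal to spinous class, 3.19-fold lower (2.17 to 4.71). Its share of cells was 8.82% and 14.9%, and its direction there changed with the clustering. The ratio was 2.98 (1.02 to 11.8) in the larger cluster, from 4 and 24 UMIs, and 0.139 in the smaller. In the smaller cluster Cyp2s1 had 62 WT UMIs from 11 cells. Outer root sheath cells of WT held it at 36.5 CPM. It was 2.02-fold lower in upper hair follicle cells (1.02 to 4.14).

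Sterol hydroxylases were low in keratinocytes. Cyp27a1, the mitochondrial sterol hydroxylase, stood at 15.9 and 24 CPM in upper hair follicle cells, 1.51-fold higher (1.04 to 2.22), and had 5 and 35 UMIs in spinous cells, a ratio of 3.7 (1.44 to 12.1). Cyp39a1, which acts on a brain oxysterol, stood at 11.9 and 13.3 CPM in the basal to spinous class. Cyp4f13 had 3 and 20 UMIs in spinous cells, a ratio of 3.52 (1.04 to 18.5), and in sebocytes it stood at 11.8 and 12.6 CPM. Cyp4f17 had 79 UMIs in all and in no compared class reached 20. Cyp4f39, the mouse counterpart of the enzyme that makes omega-hydroxyceramides of the skin barrier, had 65 UMIs in all, and 11 and 10 in granular cells.

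Other genes of the barrier lipid route were measured from a list of 13. All 13 were measured in granular cells, with none past 1.5-fold in either direction. In the basal to spinous class 6 of 12 were higher and 1 lower, against a median log2 ratio of -0.08 over all genes and 0.38 for the list. Those with 100 or more UMIs were Cers3, a ceramide synthase, at 7.85 and 16.6 CPM, the lipid transporter Abca12 at 36.7 and 62.6, and the fatty acid transporter Slc27a4 at 11.9 and 6.43. Of 21 eicosanoid and epoxide genes 16 were measured in that class, with 7 higher and 3 lower, where 7.2% of all genes were higher and 17.5% lower. They included the lipoxygenase Alox12e at 57.7 and 13.8 CPM, 4.18-fold lower (3.35 to 5.23), the phospholipase Pla2g4a at 42.3 and 25.2, the epoxide hydrolase Ephx3 at 8.86 and 14.5, and the cyclooxygenase Ptgs1 at 50.4 and 77.6. Dendritic cell and monocyte markers in the class were 179 CPM in WT and 682 in Card14KI, 5 of 7 being higher, and their part in these results was not tested.

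Immune cells held few members. Cyp4f18, which inactivates leukotriene B4 in myeloid cells, stood at 545 and 475 CPM in neutrophils, from 43 and 32 UMIs. In dendritic cells and monocytes it stood at 89 and 48.1 CPM, 1.85-fold lower (1.17 to 3.04), from 114 and 23 UMIs. In the larger cluster of that class it was 4.76-fold lower (1.75 to 18.1), from 52 and 4 UMIs. In the smaller it was 1.31-fold lower (0.77 to 2.31), from 62 and 19 UMIs. B or plasma cells, which were not compared, held 49.1 and 64.4 CPM. It was near absent elsewhere, with 0.186% and 0.0722% of fibroblasts showing a UMI. Macrophage markers in the dendritic cell and monocyte class were 2187 and 893 CPM, 0 of 7 being higher. Macrophages, 34 and 27 cells, held Cyp27a1 at 62.1 and 78.5 CPM and Por at 103 and 164.

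Vitamin D and steroid enzymes were scarce. Cyp2r1, which makes the circulating form of vitamin D, had 175 UMIs and stood at 5.92 and 5.94 CPM in sebocytes. Cyp27b1, which activates it, had 44 UMIs, 23 of them in WT outer root sheath cells, and Cyp24a1, which degrades it, had 1. Of the 7 genes of the vitamin D list 4 were measured in the basal to spinous class, with 1 lower and none higher. That gene was the receptor Vdr, at 107 and 39.1 CPM, 2.75-fold lower (2.38 to 3.17). Markers of other cells were also lower there, with inner root sheath markers at 187 and 12.3 CPM, hair shaft markers at 40.5 and 6.96, and dermal sheath markers at 372 and 10.9, and their part in the result was not tested. Cyp11a1, which opens steroid synthesis by cutting the cholesterol side chain, had 17 UMIs in all, Cyp21a1 24, Cyp19a1 2 and both Cyp11b genes none. Cyp17a1 was therefore the single classical steroid-making P450 with more than 24 UMIs. Cyp8b1, the sterol hydroxylase of bile acid synthesis in liver, had 36 UMIs, and 14 and 7 in the Akr1c18 class.

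Over the 15 classes there were 196 pairs of a member and a class with 20 or more UMIs, of which 44 were past 1.5-fold higher in Card14KI and 43 lower. Read against all genes of each class, the member counts of single classes are small. In the basal to spinous class 6 of 19 members were higher and 4 lower, where 7.2% of all genes were higher and 17.5% lower. In spinous cells it was 5 and 2 of 12, against 9.39% and 8.29%, and in upper hair follicle cells 4 and 3 of 15, against 8.13% and 9.44%. Granular cells had 3 and 4 of 15, against 18% and 6.69%. The Akr1c18 class had 5 and 3 of 13, against 5.19% and 13.1%.

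Among fibroblasts, collagen-rich cells had 2 of 18 members higher and 1 lower, against 9.68% and 9.23% of all genes. Pi16 fibroblasts had 5 of 19 higher and none lower, against 5.94% and 13.2%, and Myoc Gpx3 fibroblasts none of 17 higher and 6 lower, against 6.97% and 14.5%. The dermal sheath class had 7 and 2 of 16, against 20.2% and 21.8%, and the dermal papilla class 2 and 6 of 11, against 8.05% and 21%. Lymphatic endothelium had none of 8 higher and 3 lower, against 7.37% and 19.8%. Dendritic cells and monocytes had 2 and 2 of 7, against 7.53% and 19.8%, T cells and innate lymphocytes none and 1 of 4, against 7.5% and 20.6%, and neutrophils none of 2 in either direction, against 10.3% and 24.2%. In collagen-rich fibroblasts both shares are close to those of all genes.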

How the data were processed

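The members and gene lists were chosen with earlier results of these data known. The authors deposited UMI counts, whole numbers that were not normalized, made from the 10x Genomics 3' kit. Cell Ranger 6.0.2 and mm10 are named, per the submitters' processing notes, whereas 5.0.0 is the version per the file headers, and the gene annotation is not stated. Barcodes with under 500 genes or 20% or more mitochondrial UMIs were removed, and so were the highest scrublet scores, at 0.8% per 1000 barcodes (174 WT and 78 Card14KI), since its automatic threshold marked 2 and 4. Cells of both libraries were clustered together with scanpy 1.11.5 and leidenalg 0.10.2 (2000 variable genes without members and pathway genes, 30 components, 20 neighbours, resolution 1). Clusters were named from fixed markers by score, by rules settled after the clusters were seen, with 3 or more markers in 10% of cells. With 1 library per group no test was run. UMIs were summed by class. For calls and ranks a count of 0 in 1 library was set to 3 UMIs. Levels have exact Poisson, ratios exact conditional binomial and shares Clopper-Pearson 95% intervals. Medians are of log2(CPM + 10). The ratio function was tested on simulated data. Members with 50 or more UMIs are described one by one, and a member is named in a class when it has 20 or more UMIs with a ratio past 1.5-fold and an interval leaving out 1, or 500 or more UMIs. List genes are named when past 1.5-fold with 100 or more UMIs, at most 4 per list. All 102 members matched GENCODE vM21 by gene ID, and 79 have an entry in the RefSeq promoter table.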

Additional observations from a re-analysis of the deposited data

Results flagged for a closer look

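Among the members, 5 were past 1.5-fold higher in Card14KI in 1 class and past 1.5-fold lower in another, with 50 or more UMIs in each and intervals that leave out 1. With 1 library per group the difference between the classes was not tested. The Card14KI to WT ratio of Cyp26b1 was 3.05 in Pi16 fibroblasts and 0.489 in the basal to spinous class. In the latter, collagen-rich fibroblast markers were 1390 CPM in WT and 70.9 in Card14KI, and the Cyp26b1 ratio was 0.88 (0.509 to 1.56) in 1 cluster and 0.268 in the other. That of Cyp2d22 was 4.09 in collagen-rich fibroblasts and 0.324 in lymphatic endothelium. Cyp2f2 stood at 2.23 in dermal sheath fibroblasts and 0.0459 in sebocytes. The dermal sheath class had 323 WT and 50 Card14KI cells, and its own markers summed to 4007 and 1249 CPM. Their part in the result was not tested. Cyp4b1 stood at 1.98 in Pi16 and 0.246 in dermal papilla fibroblasts, and Cyp51 at 2.47 in the Akr1c18 class and 0.442 in Myoc Gpx3 fibroblasts.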

How the results depend on the processing

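The 44 higher and 43 lower pairs became 26 and 35 when cells were gated one by one, 19 and 25 at 2-fold, and 23 and 27 with 50 or more UMIs per pair, which tests 132 pairs. The other settings kept both counts within 1.5 times, among them 48 and 38 after centring each class on its median gene (a shift of -0.155 to 0.213 on the log2 scale) and 37 and 41 without the dermal sheath class, a setting chosen after seeing the data. Called log2 ratios changed sign in 5 cases: Cyp2s1 in the basal to spinous class (0.62 at resolution 0.5 and 0.47 at resolution 2), Cyp2f2 in granular keratinocytes (0.12 at resolution 0.5 and 0.41 with single-cell gates) and Cyp2j9 in collagen-rich fibroblasts (-0.54 with single-cell gates). The cause was not tested. Of the 69 named pairs, 62 could be evaluated with single-cell gates, where 44 kept their value within counting error, 16 moved and 2 changed sign, and of 69 pairs at resolution 0.5 the numbers were 58, 9 and 2. No paired analysis was possible because each group has 1 library. Root sheath cells differ in number between the animals, and genotype and hair cycle cannot be told apart. A gene with 0 UMIs in a class of 50 cells is not shown to be absent.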
